A study of Mus musculus with 30 samples.

Results

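The comparison described here set 3 libraries of an untreated WAPL-AID mouse embryonic stem cell line against 3 libraries of an untreated Tir1 control line, out of 30 libraries in the series. The members were taken by their labels: untreated libraries numbered 29, 35 and 41 of the line CMW184 (WAPL-AID with Tir1), and untreated libraries numbered 5, 13 and 21 of the line EN148.10 (Tir1 alone). AID is an auxin-inducible degron, a short tag through which the plant F-box protein Tir1 marks a fused protein for destruction once auxin is added. Neither group was given auxin or dTAG-13, so the comparison gives the level of each transcript before any induced depletion. Both lines derive from E14 cells, a male line of the 129P2/Ola background, and were grown on gelatin in serum with leukemia inhibitory factor, the MEK inhibitor PD0325901 and the GSK3 inhibitor CHIR-99021. Each genotype is represented by 1 named line. The labels do not say whether the 3 libraries of a group came from separate cultures, so the p-values below measure the spread between these libraries, which may be technical. Values from the same lines after 24 h in 500 µM auxin, 3 libraries each, are set beside the untreated ones.

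WAPL takes cohesin, a ring-shaped complex that folds chromatin into loops, off DNA. It works with the cofactors PDS5A and PDS5B and against NIPBL, which stimulates loop extrusion. A degron acts on the protein, and tagging is done by editing the gene, so an untreated degron line carries the altered gene without the induced loss.

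Polyadenylated RNA was sequenced and read pairs were counted per gene. The 6 libraries held 23832495 to 33976968 counts in genes, and 19868 genes passed the filter on low counts. Levels are given as CPM, counts scaled to a common library size. On a log2 scale, libraries of a group correlated across genes at 0.989 to 0.991 (Pearson), and libraries of different groups at 0.982 to 0.987. The library numbers fall on 2 sides of a break: the file header names a set ending at library 24, and the untreated Tir1 libraries belong to that earlier set of 9, whereas the untreated WAPL-AID libraries and both auxin-treated groups belong to the later 21. In the untreated comparison the line and the library set cannot be told apart. Of the 19868 genes, 180 had levels that did not overlap between the 9 earlier and 21 later libraries. Of these, 149 were called in the untreated comparison (14% genome-wide), 5.35% of its calls. The 6 libraries compared helped to pick these genes, so calls among them are largely built in. Nor is 5.35% the share of calls that follow the set, since set differences blurred by another line or treatment are missed. Embryonic stem cell identity was plain in both lines. The 15 core pluripotency and Dppa genes summed to 7270 to 7710 CPM in the Tir1 control and 6920 to 7490 CPM in WAPL-AID, and the 4 fibroblast markers that were tested summed to 21.6 to 29.3 and 23.8 to 24.9 CPM.

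Untreated WAPL-AID cells differed from the control at 2785 genes (14% of those tested) by edgeR's quasi-likelihood test at an adjusted p below 0.05. Of these, 1316 (6.62%) were higher and 1469 (7.39%) lower, around a median difference of 0 on the log2 scale over all genes. Most differences were small, with a median absolute size of 0.498 among the calls. Differences of 2-fold or more were found at 609 genes (3.07%), and they were unequal in direction, with 179 (0.901%) higher and 430 (2.16%) lower. The groups did not overlap in CPM at 5875 genes (29.6%). Leaving out replicate 2 of the Tir1 control gave 1621 calls, and leaving out replicate 2 of WAPL-AID gave 1599.

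**Figure D1:**
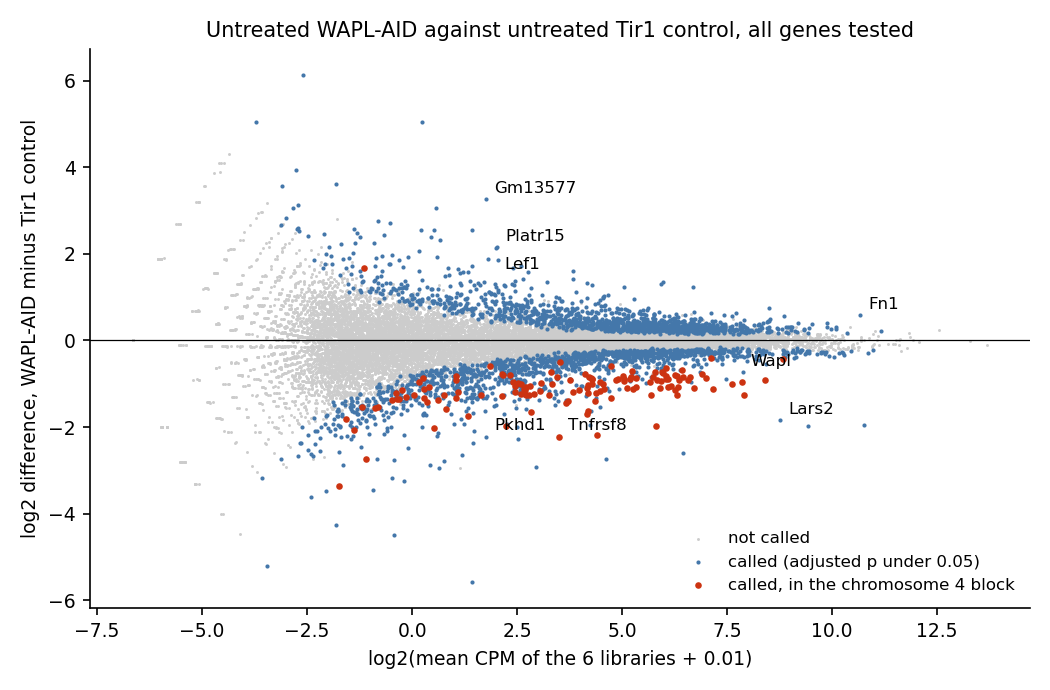
Log2 difference of every gene tested (untreated WAPL-AID minus untreated Tir1 control, vertical axis) against the log2 of its mean CPM in the 6 libraries plus 0.01 (horizontal axis). Grey points were not called, blue points were called at an adjusted p below 0.05, and red points are called genes of the chromosome 4 block; 131 of the 132 red points lie below 0.

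Wapl, the tagged gene (ENSMUSG00000041408.18, chromosome 14), was itself lower before any auxin. It stood at 285, 282 and 306 CPM in the Tir1 control and at 163, 187 and 178 CPM in WAPL-AID, a log2 difference of -0.73 ± 0.0766 (SE, edgeR adjusted p = 5.25e-08). Every WAPL-AID library lay below every control library. In the auxin-treated libraries, which share no library with the untreated ones, the difference was -1.09 (edgeR adjusted p = 1.37e-12). The control stood at 364, 369 and 363 CPM there and WAPL-AID at 150, 196 and 167 CPM. In the WAPL-NIPBL line, which carries the same WAPL tag, mean Wapl levels were 298 CPM untreated and 267 CPM with auxin and dTAG-13. The untreated control, of the earlier library set, had a mean of 291 CPM. The auxin-treated control, of the later set like WAPL-NIPBL, stood above both WAPL-NIPBL values. Whether the tag affects the level was not tested. The count is over the whole gene and does not separate tagged from untagged transcripts.

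Of 21 cohesin subunits and regulators tested, 2 were higher and 1 lower, against 6.62% and 7.39% genome-wide, the lower one being Wapl. Nipbl, the loader and extrusion factor, had 134 and 152 CPM as group means (log2 difference 0.19, edgeR adjusted p = 0.248), and the core subunit Rad21 421 and 458 CPM (0.12, edgeR adjusted p = 0.184). Pds5a differed by 0.09 and Pds5b by 0.11, with edgeR adjusted p-values of 0.6 and 0.381. Those called higher were Stag3, a meiotic cohesin subunit (27.6 against 36.8 CPM, log2 difference 0.41), and the loop anchor Ctcf (187 against 209 CPM, 0.16). Stag3 lost its call when any 1 of 5 libraries was left out, and Ctcf in 6 of 11 other settings.

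Wapl's surroundings were close to the genome's average. Within 1 Mb on either side, 18 other genes were tested, with a median log2 difference of -0.02. Of these, 1 was called higher and 3 lower, against 6.62% and 7.39% genome-wide. Anxa8, a phospholipid-binding annexin, was higher (3.98 against 5.78 CPM, log2 difference 0.53). Fam25c (75.4 against 53.1 CPM, -0.50), Sncg, which encodes gamma-synuclein (9.41 against 7.10 CPM, -0.40), and the ribosomal pseudogene Rpl23a-ps3 (7.44 against 4.77 CPM, -0.64) were lower. Fam25c and Sncg were also lower in the auxin-treated comparison, at -0.81 and -0.34. The calls of Anxa8, Sncg and Rpl23a-ps3 were each lost when single libraries were left out.

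A single stretch of chromosome 4 stood out in the whole genome. Over 9.21 Mb, from Padi4 to Spsb1 (GRCm38, chr4:140745865-149955043), most expressed genes were lower in WAPL-AID by close to 1 log2 unit. The stretch was found after the data were seen. The search took windows of 11 neighbouring genes, each averaging 50 counts or more, whose median reached 0.5 in either direction. Each end was trimmed to 3 successive genes past 0.5, and runs left with fewer than 10 genes were dropped. No other run in the genome was kept, and no test was made of the stretch. Among the 114 genes inside that averaged 50 counts or more, 107 were called lower and none higher. Their median was -0.97, which is 51.1% of the control's level, and the quartiles were -1.17 and -0.84. Counting all tested genes inside, 131 of 176 (74.4%) were called lower against 7.39% genome-wide, and 1, a pseudogene, was called higher. The block held 8.92% of all lower calls and 17.7% of those of 2-fold or more. The other 1065 tested genes of chromosome 4 had a median of -0.02 and 12.5% were called.

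At both edges neighbouring genes differed. Rcc2, the last gene before the block, differed by -0.04, and Padi4, the first gene inside, by -1.71. Spsb1, the last inside, differed by -0.77, and H6pd, the next outward, by -0.06. With a threshold of 0.3 in place of 0.5 the block began at Igsf21 (-0.72), further out than Rcc2, and kept its other end, and with at least 200 counts per gene both ends were the same. A run of 5 genes split it into 2 stretches, Padi4 to Fam131c and Fblim1 to Spsb1.

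**Figure D2:**
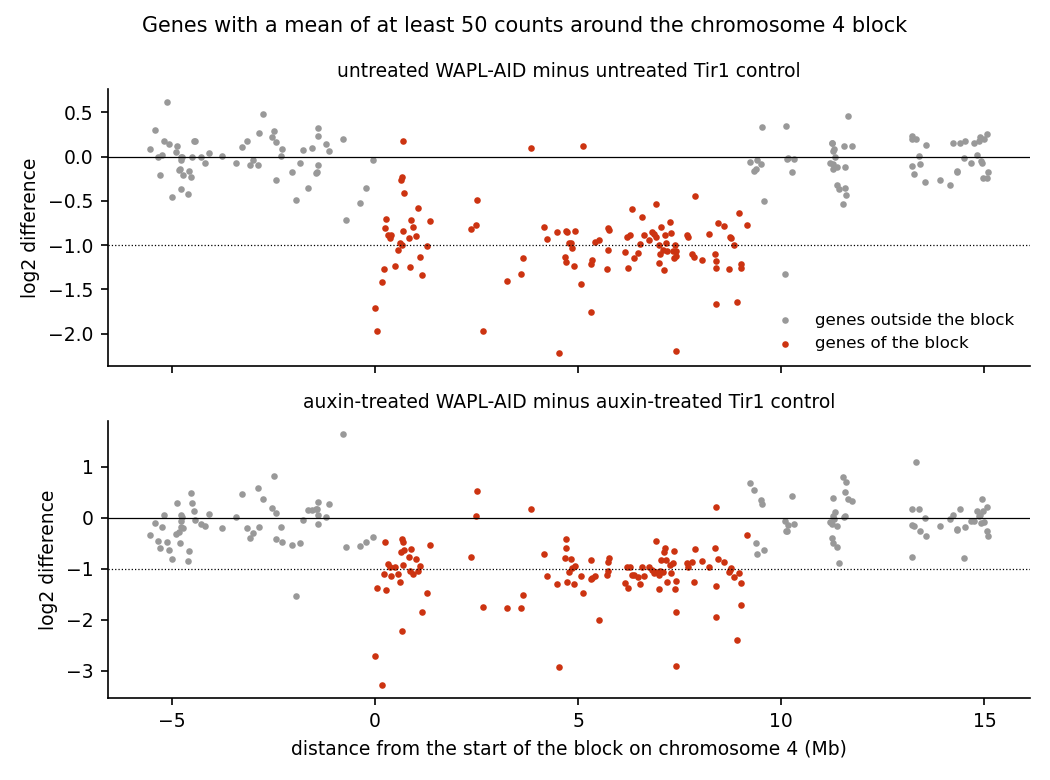
Log2 differences of genes averaging 50 counts or more around the chromosome 4 block, by distance in Mb from the start of the block; the upper panel is untreated WAPL-AID minus untreated Tir1 control and the lower panel the same lines after auxin. Red points are the 114 genes of the block and grey points its neighbours; the dotted line marks -1, and the red points centre on -0.97 above and -1.04 below.

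The search in the auxin-treated libraries alone found the block again, from Padi4 to Gm13068, and 2 shorter runs of 13 genes each, at chr2:3284212-5064051 (median -0.55) and chrX:51117269-53738441 (median 0.65). In the block 136 of the 176 genes were called lower (77.3%, against 19.8% genome-wide), and the median of the 114 was -1.04. Against auxin-treated Tir1 control, which lies in the later library set and shares the WAPL-AID libraries with the main comparison, the median was -0.98. Tir1 control itself did not shift: its auxin-treated and untreated libraries differed by a median of 0 in the block. By library, the block median relative to untreated Tir1 control was -0.96, -0.96 and -0.98 in untreated WAPL-AID, and -1.10, -1.01 and -1.08 after auxin. The WAPL-NIPBL line, which carries an additional degron on NIPBL and a HaloTag on RAD21, was at -0.91 ± 0.0513 untreated and -0.93 ± 0.02 with auxin and dTAG-13 (SD, n = 3 libraries each). The PDS5AB line was at -0.34 ± 0.0265 untreated (SD, n = 3), and the PDS5AB-NIPBL line at -0.20 ± 0.08 (SD, n = 3).

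**Figure D3:**
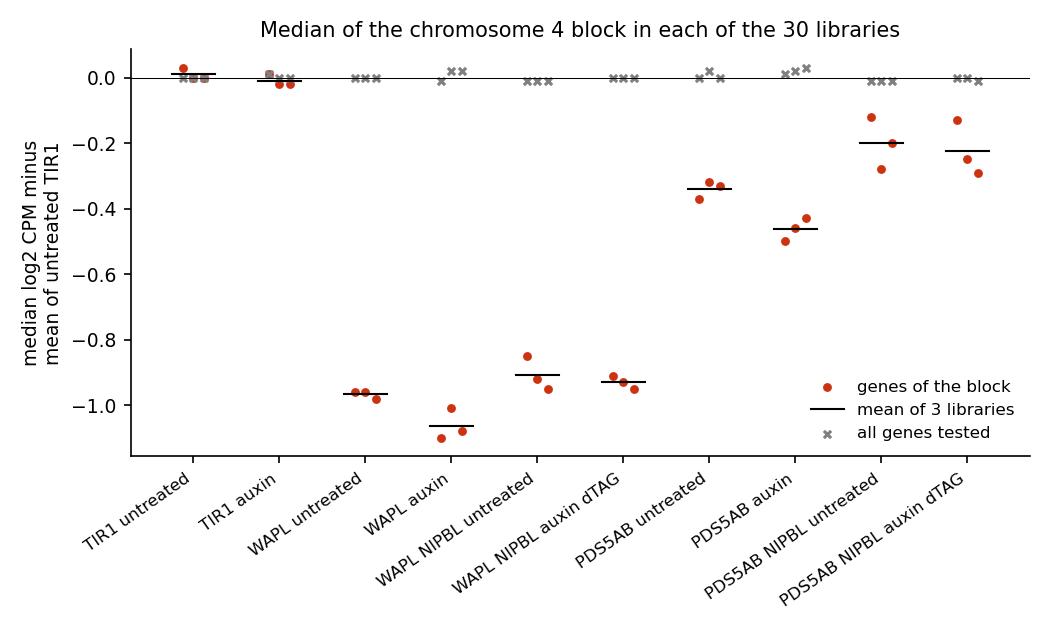
Median over the 114 block genes of log2 CPM minus the mean of untreated Tir1 control, in each of the 30 libraries by group (red points, with the mean of 3 libraries as a black line), beside the median over all genes tested (grey crosses). The 12 libraries of the WAPL and WAPL-NIPBL lines lie between -1.10 and -0.85, while the medians over all genes stay between -0.01 and 0.03.

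Single genes of the block varied around its median, with 8 of the 114 beyond -1.5 and 8 above -0.5. Of its most highly counted genes, Pgd, an enzyme of the pentose phosphate pathway, fell from 333, 349 and 327 CPM in the control to 152, 127 and 141 CPM (log2 difference -1.26 ± 0.0873 SE). Clstn1, a membrane cadherin-like protein, had 279, 269 and 239 CPM against 129, 134 and 129 CPM (-1). Srm, the spermidine synthase gene, had 214, 202 and 178 CPM against 101, 82.9 and 86.8 CPM (-1.13). None of these groups overlapped, which held at 29.6% of all genes tested. Fblim1 differed by -0.92, Zfp990 by -0.97 and Zfp979 by -0.87. Tardbp and Spen, both RNA-binding proteins, moved less, at -0.44 and -0.41, and Spen's call was lost without replicate 1 of the control or replicate 2 of WAPL-AID. Chosen after their values were seen, the growth kinase gene Mtor had 132, 121 and 119 CPM against 63.4, 69.4 and 65.6 CPM (-0.91), and Sdhb, a subunit of mitochondrial complex II, 104, 119 and 112 CPM against 52.2, 43.2 and 43.2 CPM (-1.27). Pik3cd, a catalytic PI3-kinase subunit, was lower still, with group means of 27.5 and 8.84 CPM (-1.64).

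Several gene families are clustered in the block, which was itself found by its low values. Over all its tested genes 74.4% were called lower, against 7.39% genome-wide. All 4 peptidyl arginine deiminase genes tested, which convert arginine in proteins to citrulline, were called lower, with a median of -1.62. Padi4 had 28, 26.8 and 26.7 CPM in the control and 7.69, 7.65 and 9.61 CPM in WAPL-AID (-1.71), Padi3 group means of 7.47 and 1.91 CPM (-1.97), and Padi2 29.6 and 11.2 CPM (-1.41). Padi1, the faintest, was at -1.53 and lost its call without any 1 of 3 libraries. Padi2 and Padi4 were further apart after auxin, at -3.28 and -2.70, and the test of that change gave edgeR adjusted p-values of 8.88e-06 and 0.000429. Padi3 was at -1.37 after auxin, a change of 0.61 in the other direction (edgeR adjusted p = 0.0932). In these tests of change, auxin and the library set cannot be told apart. Of 20 clustered zinc finger genes, 19 were called lower, with a median of -0.95. Of 7 Prame family genes, 4 were called lower, among them Pramef8 (87.3, 88.5 and 93.4 CPM against 26.1, 21.2 and 21.1 CPM, -1.97) and Pramef12 (106 against 47.7 CPM, -1.15). These last 2 families hold near-identical copies whose reads can be split or dropped in counting, so their single values are uncertain. Tnfrsf8, which encodes the receptor CD30, had 18.6, 19.5 and 17.9 CPM against 4.91, 3.35 and 3.66 CPM (-2.22), and Fbxo2, a ubiquitin ligase subunit that binds glycoproteins, 34.6, 36.3 and 32.3 CPM against 8.15, 6.52 and 7.87 CPM (-2.19). Both lie in the block.

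Outside the block, Pkhd1, which encodes the ciliary protein fibrocystin, and Adgrl3, an adhesion receptor of the latrophilin family, were also lower with and without auxin. Pkhd1 had 4.74, 5.68 and 6.28 CPM against 1.79, 0.846 and 0.866 CPM (log2 difference -2.22 untreated, -1.55 after auxin), and Adgrl3 2.31, 2.99 and 3.40 CPM against 1.11, 0.811 and 0.709 CPM (-1.71 and -1.19). Each shares exon sequence with a gene on the other strand, and the counting used no strand option. Ifi27, an interferon-inducible gene, behaved differently: at 6.94, 6.25 and 7.62 CPM in the control it was at 2.63, 1.87 and 1.93 CPM in untreated WAPL-AID (-1.69), but at 9.70, 6.78 and 6.80 CPM in WAPL-AID after auxin. Prph, an intermediate filament of neurons, had 11.1, 9.33 and 6.77 CPM against 2.10, 1.66 and 3.03 CPM (-2.01). Its auxin-treated control was at 2.85 CPM, and against that control the difference was -0.32 (edgeR adjusted p = 0.524).

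Some of the largest lower values came from features that were uneven among the control libraries. Lars2, a mitochondrial leucyl-tRNA synthetase gene, had 1370, 387 and 266 CPM in the control and 154, 232 and 180 CPM in WAPL-AID (log2 difference -1.84, edgeR adjusted p = 0.0275). Without the first control library the difference was -0.77 (edgeR adjusted p = 0.388), and the call was also lost without any 1 of the WAPL-AID libraries. Gm24270, annotated as a microRNA, (27, 7.75 and 6.35 CPM against 1.58, 2.33 and 1.50 CPM, -2.93) and the antisense transcript Gm15564 (93.9, 21.2 and 11.9 CPM against 4.48, 8.85 and 5.79 CPM, -2.74) were high in the same control library. Gm15564 was at -1.36 without it (edgeR adjusted p = 0.201). The mitochondrial tRNA gene mt-Tl2 had 2.57, 1.72 and 7.37 CPM against 0.618, 0.670 and 0.590 CPM (-2.64), and lost its call without the third control library, at -1.78 (edgeR adjusted p = 0.093). None of the 4 was called in the auxin-treated comparison.

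Among the genes higher in WAPL-AID, the long noncoding RNA Platr15, named for its association with pluripotency, was called higher against either control group. It had 1.58, 1.10 and 1.70 CPM in the control and 5.78, 7.93 and 6.18 CPM in WAPL-AID (log2 difference 2.16 ± 0.268 SE, edgeR adjusted p = 1.14e-06). The difference was 1.94 after auxin and 2.17 against the auxin-treated control. Chst11, a chondroitin sulfotransferase gene, had 4.56, 1.76 and 2.02 CPM against 6.73, 13.4 and 7.83 CPM (1.73), with 2.17 after auxin. Slc44a5, a choline transporter-like gene, had 1.29, 1.45 and 1.06 CPM against 4.76, 3.17 and 3.19 CPM (1.57), and 3.95 after auxin. These 3 genes were named by a rule that itself required untreated groups without overlap. In each, WAPL-AID was higher against either control group.

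Dner, a Notch-pathway membrane protein, had 2.90, 1.89 and 2.69 CPM against 6.58, 9.80 and 7.68 CPM (log2 difference 1.67). Untreated WAPL-AID was also called higher against auxin-treated control (1.38, edgeR adjusted p = 3.6e-05). Between the auxin-treated groups the difference was 0.47 (edgeR adjusted p = 0.102). The intestinal mucin Muc2 (1.40, 0.352 and 1.63 CPM against 2.63, 4.09 and 3.62 CPM, 1.57) lost its call without any 1 of 3 libraries. Car12, a carbonic anhydrase, had means of 0.940 and 2.72 CPM (1.52).

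For several other higher genes the auxin-treated control stood at or above the untreated WAPL-AID level. Gstm3, a glutathione transferase, had means of 3.34 CPM in untreated control, 10.1 CPM in untreated WAPL-AID and 12.4 CPM in auxin-treated control. The sphingosine receptor gene S1pr1 had 2.99, 7.85 and 13.2 CPM in the same order. Bc1, a small cytoplasmic RNA of neurons, had 7.60, 20.6 and 21.6 CPM. The untreated PDS5AB line, also of the earlier set, had 2.39 CPM of Gstm3, 2.42 CPM of S1pr1 and 5.30 CPM of Bc1. The levels did not follow the library set in every line: S1pr1 had 10.2 CPM in auxin-treated PDS5AB cells of the earlier set, and Gstm3 3.74 CPM in untreated PDS5AB-NIPBL cells of the later set. The levels of Bc1 and the homeobox gene Cdx2 did not overlap between the 9 earlier and the 21 later libraries of all lines. The same held for Gm13577 (0.641 against 6.07 CPM, log2 difference 3.26) and AC131675.2 (0.780 against 4.55 CPM, 2.55), the 2 predicted genes named by size; after auxin, with both groups in the later set, their line differences were -0.26 and 0.14.

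**Figure D4:**
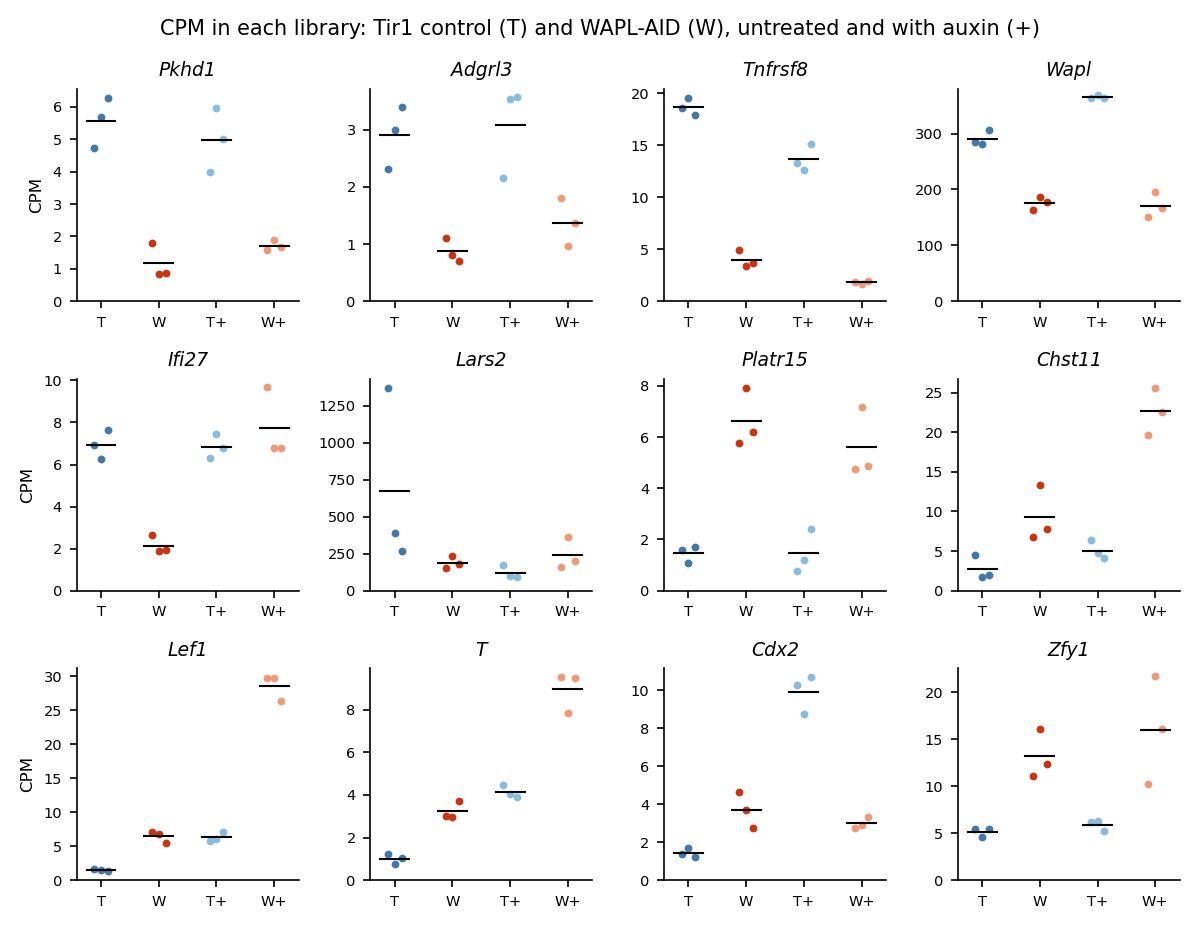
CPM of 12 genes in each library (points, with the mean of 3 as a black line; each vertical axis starts at 0) in Tir1 control (T) and WAPL-AID (W), untreated or with auxin (+). Pkhd1, Adgrl3, Tnfrsf8 and Wapl are low in WAPL-AID with and without auxin, Platr15 and Zfy1 high with and without, and for Lef1 and T the auxin-treated control reaches the level of untreated WAPL-AID.

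Genes that respond to Wnt signalling were higher in WAPL-AID or not called. Wnt ligands, or the GSK3 inhibitor in this medium, stabilise beta-catenin, which joins TCF and LEF proteins on DNA to switch on targets such as Axin2, Sp5 and T. Of 17 such genes tested, 8 were called higher (6.62% genome-wide) and none lower, with a median of 0.47 against 0 over all genes. Lef1, itself a DNA-binding partner of beta-catenin, had 1.69, 1.45 and 1.28 CPM in the control and 7.14, 6.77 and 5.47 CPM in WAPL-AID (log2 difference 2.14 ± 0.241 SE, edgeR adjusted p = 2.06e-07). T, the mesoderm factor brachyury, had 1.21, 0.748 and 1.06 CPM against 3, 2.96 and 3.70 CPM (1.65). Cdx2, a caudal-type homeobox gene, had 1.40, 1.72 and 1.24 CPM against 4.66, 3.67 and 2.76 CPM (1.37), and the zinc finger gene Sp8 means of 0.227 and 0.862 CPM (1.91). The groups of these 4 genes did not overlap. Sp5 (34.9 against 53 CPM, 0.60), the feedback inhibitor gene Axin2 (65.1 against 95.6 CPM, 0.55), the TCF family gene Tcf7 (64.0 against 88.8 CPM, 0.47) and Nkd1, another inhibitor (1.33 against 2.45 CPM, 0.86), moved less. Nkd1's groups overlapped, Tcf7 had no overlap between the 9 earlier and 21 later libraries, and Sp5, Tcf7 and Nkd1 each lost the call in 2 to 5 of 11 other settings.

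These Wnt genes read differently against the other control group. Auxin-treated Tir1 control was set against the same untreated WAPL-AID libraries as above. Relative to that control, 2 of the 17 were higher and 7 lower, against 6.62% and 8.47% genome-wide, with a median of -0.12. Lef1 was at 6.30 CPM in that group (log2 difference 0.04), T at 4.14 CPM (-0.37) and Cdx2 at 9.90 CPM (-1.41). Within Tir1 control, auxin-treated libraries exceeded untreated ones by a median of 0.59 over the list. Within Tir1 control auxin and the library set cannot be told apart. Between auxin-treated WAPL-AID and auxin-treated control, 7 were higher and 3 lower, against 19.9% and 19.8% genome-wide. There Lef1 was at 2.18, T at 1.11 and Cdx2 at -1.72.

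The promoters of 2 of these genes are shown because they carry the core of the site bound by TCF and LEF proteins. The motif searched was CTTTGA, on both strands, in RefSeq promoters (GRCm38.p6) from 250 bases before to 50 bases after the start; matches are in capitals, TCAAAG being the reverse strand. All 8 called genes matched an entry, and 4 of them (Lef1, Sp5, Sp8 and T) have at least 1 entry with the motif, counting 4 of 14 promoters (28.6%). Over all promoters found for Wnt list genes, called or not, the motif was in 5 of 18 (27.8%), against 5257 of 32851 (16%) over all genes. Those 18 include the 14 of called genes, and not every uncalled member had an entry.
Sp5, chr2:70474673-70474972, plus strand: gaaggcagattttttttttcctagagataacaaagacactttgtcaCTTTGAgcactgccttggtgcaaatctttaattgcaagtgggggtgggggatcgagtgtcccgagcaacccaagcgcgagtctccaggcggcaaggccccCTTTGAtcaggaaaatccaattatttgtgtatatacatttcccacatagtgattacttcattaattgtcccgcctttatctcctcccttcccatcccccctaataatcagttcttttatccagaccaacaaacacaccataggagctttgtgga
T, chr17:8434173-8434472, plus strand: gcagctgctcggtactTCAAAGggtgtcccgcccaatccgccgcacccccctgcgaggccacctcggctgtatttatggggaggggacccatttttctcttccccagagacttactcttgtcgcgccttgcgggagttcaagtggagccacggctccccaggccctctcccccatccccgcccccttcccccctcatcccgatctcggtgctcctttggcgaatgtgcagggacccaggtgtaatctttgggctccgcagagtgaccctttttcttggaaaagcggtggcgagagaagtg
The Sp5 promoter holds 2 matches and the T promoter 1. A match describes these letters only.

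None of the 15 core pluripotency and Dppa genes was called, with a median of -0.09. Of 18 factors of the naive state, 2 were higher and 3 lower (6.62% and 7.39% genome-wide) with a median of 0: Klf4 rose from 279 to 352 CPM (log2 difference 0.34) and Tcl1 fell from 117 to 93.2 CPM (-0.33), both losing the call when single libraries were left out, and Zfp981 (-0.83) lies in the chromosome 4 block. No 2-cell-like gene of 15 was called, and no BMP response gene of 12. After auxin, 14 naive factors were lower and 2 higher, against 19.8% and 19.9% genome-wide.

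Of 24 collagen and laminin chains and their partners, 7 were higher and 1 lower, against 6.62% and 7.39% genome-wide, with a median of 0.36. Lamb1, a laminin chain of basement membranes, had 29.4, 28.6 and 20.8 CPM against 42.3, 56.7 and 54.5 CPM (log2 difference 0.96) and Col1a1 4.08, 2.55 and 2.84 CPM against 7.72, 8.08 and 7.13 CPM (1.27), while Col5a2 was lower (4.63 against 1.82 CPM, -1.34). Lamb1 was 2.29 higher after auxin, Col1a1 was not called there (-0.37), and Col5a2 was again lower (-1.63). Of 18 endoderm genes, with a median of 0.40, 4 were higher (6.62% genome-wide), including the endocytic adaptor gene Dab2 (3.97 against 7.05 CPM, 0.84), and Amn was lower (2.04 against 0.955 CPM, -1.11). The endoderm regulators Gata4, Gata6 and Sox17 were not called, at 0.54, 0.51 and 0.44. Of the 4 fibroblast markers tested, with a median of 0.35, Col1a1 was the 1 called higher, and Thy1 was lower (11.9 against 5.45 CPM, -1.13), with no overlap between the earlier and later library sets. Whether a minor cell population contributes was not tested, and in bulk RNA fewer cells of a type and less RNA per cell cannot be told apart.

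Hypoxia-responsive and glycolytic genes were called higher at 6 of 28 (6.62% genome-wide) and lower at none, with a median of 0.22. Across the other settings the number higher ran from 2 to 14. The glucose transporter gene Slc2a1 had 313, 238 and 248 CPM against 407, 543 and 403 CPM (log2 difference 0.76, edgeR adjusted p = 0.00045). Ndrg1 (19.5 against 46.0 CPM, 1.23) and Egln3, a prolyl hydroxylase of the hypoxia response (15.5 against 31.6 CPM, 1.02), lost the call without replicate 2 of either group. After auxin Ndrg1 was again called higher (0.81, edgeR adjusted p = 0.0396), and Slc2a1 and Egln3 were at -0.09 and 0.10. The whole list was then 13 higher and 2 lower, against 19.9% and 19.8% genome-wide, with a median of 0.31. In untreated WAPL-AID relative to auxin-treated control, 11 were higher and none lower, against 6.62% and 8.47% genome-wide (median 0.40).

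Transcripts of the Y chromosome were higher at 5 of 7 genes (6.62% genome-wide) and lower at none, with a median of 0.64. The RNA helicase gene Ddx3y had 73.2, 84.7 and 84.6 CPM against 121, 137 and 126 CPM (log2 difference 0.66, edgeR adjusted p = 1.17e-05). Uty, a histone demethylase relative, had 18.9, 23.7 and 28.4 CPM against 34.8, 38.4 and 37.2 CPM (0.64), and the translation factor gene Eif2s3y 50.4, 64.0 and 66.3 CPM against 81.6, 95.1 and 77.8 CPM (0.49). The zinc finger gene Zfy1 had 5.47, 4.58 and 5.39 CPM against 11.1, 16.1 and 12.4 CPM (1.35), and its near-identical relative Zfy2 means of 0.197 and 0.627 CPM (1.60). The groups of these 5 genes did not overlap (29.6% of all genes tested), and Ddx3y had no overlap between the earlier and later library sets either. Zfy2 lost its call without any 1 of 4 libraries. All 5 were also higher after auxin (19.9% genome-wide), Ddx3y by 0.38 and Zfy1 by 1.44. Kdm5d (-0.34) and Usp9y (-1.10) were not called. No other chromosome had a median beyond 0.1 on the log2 scale; the 13 Y-linked genes tested had 0.22.

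Of 26 germline genes held down by DNA methylation, 7 were lower and 1 higher, against 7.39% and 6.62% genome-wide. Stk31 had 23.5, 27.7 and 38.1 CPM against 13.1, 11.6 and 11.1 CPM (log2 difference -1.32), Tex101 means of 8.26 and 4.36 CPM (-0.92), and Brdt 1.73 and 3.97 CPM (1.19). Of 54 imprinted genes, 9 were higher and 7 lower, against the same shares, with a median of 0.03; across the other settings 6 to 13 were higher and 3 to 9 lower. Phlda2, a growth restrictor of the placenta, had 18.2, 17.7 and 12.6 CPM against 7.41, 7.62 and 5.90 CPM (-1.20) and was again lower after auxin (-1.49). Peg13 was faint and lower (0.714 against 0.126 CPM, -2.45), and H19 higher (1.21 against 2.35 CPM, 0.93), with the call lost in 5 of 11 other settings. The simple keratin gene Krt8 was lower (15.1, 17.3 and 14.4 CPM against 6.30, 4.65 and 5.79 CPM, -1.48) and Krt7 higher (0.760 against 1.79 CPM, 1.24). The neuronal tubulin gene Tubb3 was lower (120.0, 144 and 128 CPM against 72.2, 59.2 and 69.8 CPM, -0.96), and was the only one of 10 neural genes called. Among 32 clustered protocadherins 6 were lower (7.39% genome-wide) and none higher, with 3 to 7 lower across the other settings.

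Of 84 cytosolic ribosomal protein genes, 29 were lower and none higher, with a median of -0.19, and of 77 mitochondrial ones 17 were lower and none higher (-0.14), against 7.39% lower genome-wide. Across the other settings the counts of lower genes ran from 4 to 33 and from 2 to 21, while the medians stayed between -0.23 and -0.15 and between -0.20 and -0.11. Rps21 had means of 408 and 279 CPM (log2 difference -0.55), and Rpl39 means of 292 and 211 CPM (-0.47). Against auxin-treated control, none of the 84 was called (15.1% genome-wide) and the median was 0.01. Between the auxin-treated groups, also within the later set, 24 of the 84 were lower and none higher (-0.15), and 25 of the 77 were lower and 2 higher, against 19.8% lower and 19.9% higher genome-wide.

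Differences also varied with gene length. When genes averaging 50 counts or more were split into 10 near-equal classes by summed exon length, the median difference rose from -0.15 in the shortest (56 to 1533 bases) to 0.13 in the longest. In the shortest class 20.5% were called lower and 4.11% higher, and in the longest 3.49% lower and 19.5% higher. Whether the ribosomal protein lists above differ from other genes of their length was not tested. The difference between auxin-treated and untreated Tir1 control, which shares the untreated control libraries, ran from -0.19 to 0.15. Both contrasts within the later library set were flat, the auxin-treated line difference lying between -0.09 and 0 and the one against auxin-treated control between -0.02 and 0.04. In those 2 contrasts the chromosome 4 block stood at -1.04 and -0.98, and Wapl at -1.09 and -1.06.

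**Figure D5:**
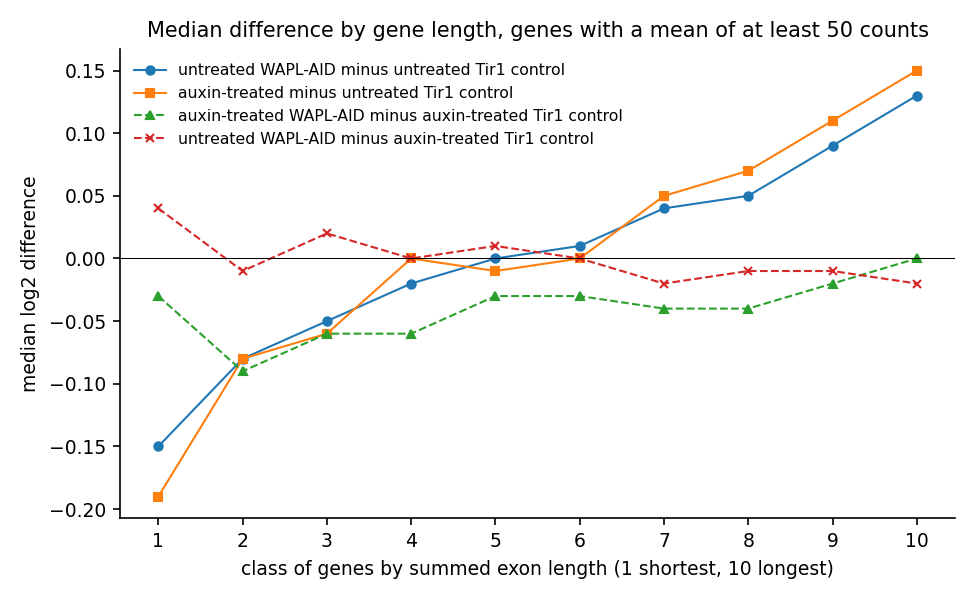
Median log2 difference (vertical axis) in each of 10 classes of genes by summed exon length, shortest to longest, for 4 contrasts. The 2 solid lines cross the library sets and rise from -0.15 and -0.19 to 0.13 and 0.15, and the 2 dashed lines lie within the later set and stay between -0.09 and 0.04.

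Between auxin-treated WAPL-AID and auxin-treated control, 7879 genes (39.7%) were called, 19.9% of those tested being higher and 19.8% lower. This comparison shares no library with the untreated one, and both of its groups are in the later set, but WAPL is degraded in 1 of them. Of the 2785 genes called without auxin, 1415 passed again in the same direction, 50.8% of the untreated calls and 18% of the auxin-treated ones; 1649 were called in both. Of the 609 genes of 2-fold or more, 294 did so (48.3%). Against auxin-treated control, untreated WAPL-AID differed at 2998 genes (15.1%), 1315 higher (6.62%) and 1683 lower (8.47%).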

How the data were processed

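Gene counts were made by the authors with featureCounts 2.0.1 in paired-end mode on the GENCODE annotation of GRCm38, per the file headers, with no option for strand or for reads with several matches in the recorded command. STAR 2.7.7a, cutadapt and deepTools are named in the submitters' processing notes. The labels name a stranded polyA kit, but the recorded command used no strand option. Reads of genes that overlap on opposite strands therefore cannot be told apart in the counts. The counts were used as deposited: 55421 genes in 30 libraries, of which 19868 passed edgeR's filterByExpr with a minimum count of 10. TMM scaling (factors of 0.95 to 1.13) and quasi-likelihood F tests were run in edgeR 4.0.16 (R 4.3.3) on 10 group means with 20 residual degrees of freedom, and p-values were adjusted over all genes tested by Benjamini-Hochberg. Log2 differences are WAPL-AID minus control unless said otherwise. On simulated counts, 74 of 100 genes changed by 0.5 on the log2 scale and 94 of 100 changed by 1 were recovered in the untreated comparison, among 18401 genes, with 7 unchanged genes called.

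Genes were named by rule: per direction the 12 largest calls averaging 50 counts or more with groups that do not overlap, the 2 largest predicted genes, the 3 largest called members of each gene list, Wapl and its cofactors, and called genes within 1 Mb of Wapl. Some genes that met the rule are not reported here. Genes of the chromosome 4 block, members that were not called, and others beyond the rule were chosen after their values were seen. The comparison, the gene lists and the rules were chosen with earlier results of these data known. Alternatives were RLE scaling, DESeq2 1.42.0, no filter, 2 groups only, a fold minimum, a replicate block and leaving out each library.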

Additional observations from a re-analysis of the deposited data

Results flagged for a closer look

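The difference between the lines was itself compared between auxin-treated and untreated libraries, and it changed at 4116 genes (edgeR interaction, adjusted p below 0.05), 930 of them among the untreated calls. Of 96 genes named above, 39 changed, 15 toward a higher and 24 toward a lower value in auxin-treated cells. Of the groups in this contrast, only untreated Tir1 control lies in the earlier library set. A change with auxin and a difference between library sets therefore cannot be told apart in it. The values that follow are the auxin-treated line difference minus the untreated one on the log2 scale, and no explanation was tested.

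Among developmental and matrix genes the change was -3.09 for Cdx2, -1.64 for Col1a1, 1.32 for Lamb1, 2.44 for Dab2, 2.56 for H19 and 1.08 for Krt8. It was -0.96 for Thy1, 0.61 for Tubb3, 1.32 for Prph, -1.74 for Klf4 and -0.43 for Tcl1. For germline genes it was -0.83 (Stk31) and -1.04 (Brdt). Genes higher in untreated WAPL-AID gave -1.20 (Dner), -0.75 (Gstm3), 2.38 (Slc44a5), -0.86 (S1pr1), -2.32 (Bc1), -3.52 (Gm13577), -2.42 (AC131675.2) and -0.85 (Slc2a1). Lower ones gave 1.86 (Ifi27), 0.33 (Rps21), 2.84 (Lars2), 2.82 (mt-Tl2), 3.70 (Gm24270) and 3.71 (Gm15564).

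Cohesin genes changed by -0.37 (Wapl), -0.49 (Pds5a) and -0.33 (Rad21). In the chromosome 4 block the change was -0.70 for Tnfrsf8, -0.72 for Fbxo2, -0.99 for Padi4, -1.87 for Padi2, -0.76 for Pik3cd, -0.36 for Pramef12 and 0.43 for Spsb1. The genes just outside it gave -0.35 (Rcc2) and 0.74 (H6pd).

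In lines outside the main comparison, the block median against untreated Tir1 control was -0.91 in untreated WAPL-NIPBL cells and -0.93 with auxin and dTAG-13. It was -0.34 and -0.46 in PDS5AB cells without and with auxin, and -0.20 and -0.22 in PDS5AB-NIPBL cells without and with both agents.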

How the results depend on the processing

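The untreated comparison gave 2785 calls, and 3009 with DESeq2 (which left 1927 genes without an adjusted p), 2778 with RLE scaling, 2775 without the filter and 2461 with 2 groups only. Adding the replicate block gave 3639, but same-numbered libraries did not deviate together (r of -0.0305, -0.0416 and 0.0143) and none correlated best with its own number, so the numbers were not treated as pairs. Leaving out single libraries gave 1599 to 2641 calls, the lowest without replicate 2 of WAPL-AID. Requiring a 2-fold difference left 609 calls, and 2442 and 707 in the auxin-treated comparison and against auxin-treated control; the stricter rule itself removes the rest. The replicate block gave 8655 and 3917 there. The median of chromosome 4 was -0.07, -0.03 among genes averaging 50 counts or more, and -0.08 to -0.04 when single libraries were left out; the cause was not tested. The block median stayed between -0.98 and -0.96 in every leave-one-out fit, and refitting without its genes gave 2634 calls; these alternatives were chosen after seeing the data. Of 144 called genes examined singly, 86 kept the call in all 11 settings, 58 lost it in at least 1, 46 of them only when a library was left out, and 0 reversed. The median of 28 of 40 gene lists moved by more than the replicate SD in some setting. Genes at a few counts per library have folds limited by depth.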
